A study of Mus musculus with 18 samples.

Results

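The genes described here are 46 mouse genes of DNA repair and of the DNA damage checkpoint, measured in melanoma allografts after the NRAS oncogene was switched off or the kinase MEK was inhibited. They fall into 6 classes by textbook function, with 19 genes of homologous recombination, 9 Fanconi anaemia genes, 6 checkpoint genes, 3 mismatch repair genes, 5 end joining genes and 4 single-strand break genes. Every probe set annotated with 1 gene symbol that was a listed name or a current synonym of it was taken, which gave 99 probe sets for 44 of the 46 genes. Xrcc2 and Rbbp8 matched no such probe set and were not analysed here. Of the 44 genes, 42 passed a filter on low signal and were tested. Bard1 and Brip1, both partners of the BRCA1 protein, had mean intensities of 18.4 and 23.2 and did not pass it. The whole table covered 18193 genes.

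All 18 allografts came from the single mouse melanoma line iNRAS-475, whose NRAS oncogene is expressed only while doxycycline is given. Hosts were nude mice, which have no mature T cells but keep macrophages and other innate cells, and the line was placed in their skin under 2 mg/ml doxycycline in the water. Treatment began after 6 weeks, at 200 to 500 mm3. NRAS-off mice lost their doxycycline for 4 days, MEK inhibitor mice got AZD6244, a drug that blocks MEK1 and MEK2, at 100 mg/kg for 4 days with the oncogene still on, and vehicle mice got vehicle and kept their doxycycline. Each arm held 6 distinct tumours, with 1 array per tumour. The promoter that drives the transgene is not given in the sources used here. Only NRAS-off mice lost doxycycline, so a direct action of that antibiotic and the loss of NRAS cannot be told apart.

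Array medians were 72.3 to 78.5 in intensity, and within an arm 2 arrays correlated at 0.978 to 0.997. Among 8 melanocytic markers, 6 passed the signal filter, while Tyr and Tyrp1, enzymes of melanin synthesis, did not. Levels are given as intensities. Differences are given ± SE on the log2(intensity + 16) scale, which understates the changes of dim genes. A gene was called higher, lower, risen or fallen where its limma adjusted p over all 15005 genes was under 0.05. In bulk tumours, fewer cells of a type and less RNA per cell cannot be told apart.

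DNA repair works through several routes. Homologous recombination copies an intact sister chromatid to mend a broken one and is used in S and G2 phase, and the Fanconi anaemia proteins open DNA crosslinks and hand the break to recombination. End joining seals broken ends without a template at any stage of the cycle, mismatch repair corrects copying errors, and PARP and XRCC1 proteins mend breaks in a single strand. The checkpoint kinases ATM and ATR sense damage and signal through CHK2 and CHK1 to stop division. Many recombination and Fanconi genes are transcribed most in dividing cells, under E2F factors and the RB family.

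Promoter windows of 5 genes are shown because, among genes with a single window, they had the largest differences of their class between NRAS-off and vehicle tumours, or, for Fancg, the largest rise. They were chosen after the values were seen and come from RefSeq, build GRCm38.p6, covering 250 bases before to 50 after the start, 5′ to 3′ on the gene's strand. Capitals mark matches to an E2F-type motif (TTCCCGC or TTGGCGC or TTCGCGC or TTGCCGC), to CCAAT, or to the CHR motif TTTGAA, on either strand. The 5 windows are Brca1 at chr11:101551906-101552205 on the minus strand, Fanci at chr7:79392088-79392387 on the plus strand, Chek1 at chr9:36726609-36726908 on the minus strand, Xrcc5 at chr1:72307171-72307470 on the plus strand and Fancg at chr4:43010252-43010551 on the minus strand.
Brca1: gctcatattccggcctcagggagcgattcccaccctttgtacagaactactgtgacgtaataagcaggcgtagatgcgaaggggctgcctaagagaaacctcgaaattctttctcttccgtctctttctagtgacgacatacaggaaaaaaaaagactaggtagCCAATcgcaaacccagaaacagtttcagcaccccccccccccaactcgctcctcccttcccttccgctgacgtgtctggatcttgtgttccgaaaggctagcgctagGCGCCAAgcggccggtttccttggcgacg
Fanci: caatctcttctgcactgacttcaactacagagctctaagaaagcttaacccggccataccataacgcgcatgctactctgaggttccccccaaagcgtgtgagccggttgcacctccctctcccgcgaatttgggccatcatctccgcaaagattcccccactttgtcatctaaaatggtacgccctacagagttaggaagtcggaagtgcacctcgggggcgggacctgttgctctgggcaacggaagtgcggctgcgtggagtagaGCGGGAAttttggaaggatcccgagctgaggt
Chek1: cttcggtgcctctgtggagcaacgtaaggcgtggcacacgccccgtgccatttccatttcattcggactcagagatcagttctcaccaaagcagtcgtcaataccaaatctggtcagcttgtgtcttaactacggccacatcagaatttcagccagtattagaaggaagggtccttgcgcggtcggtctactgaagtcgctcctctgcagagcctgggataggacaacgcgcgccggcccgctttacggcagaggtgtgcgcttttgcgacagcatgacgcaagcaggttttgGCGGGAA
Xrcc5: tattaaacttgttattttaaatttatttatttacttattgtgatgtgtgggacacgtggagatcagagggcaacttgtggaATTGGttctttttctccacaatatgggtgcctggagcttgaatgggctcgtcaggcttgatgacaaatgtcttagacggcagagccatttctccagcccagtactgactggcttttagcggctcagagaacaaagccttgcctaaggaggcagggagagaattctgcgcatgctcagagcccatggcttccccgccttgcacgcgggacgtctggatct
Fancg: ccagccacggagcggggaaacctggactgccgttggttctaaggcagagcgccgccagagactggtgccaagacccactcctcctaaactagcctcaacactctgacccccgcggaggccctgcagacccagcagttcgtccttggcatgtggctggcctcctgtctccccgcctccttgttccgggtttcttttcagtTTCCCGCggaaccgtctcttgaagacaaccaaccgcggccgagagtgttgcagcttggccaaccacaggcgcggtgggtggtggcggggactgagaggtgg

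In the Brca1 window the E2F-type match, written GCGCCAA on this strand, begins 21 bases after the start and CCAAT lies 86 bases before it. Fanci and Chek1 carry GCGGGAA 18 and 43 bases after the start, and Fancg carries TTCCCGC 51 bases before it. Xrcc5 has none of the E2F-type letters and 1 CCAAT match, written ATTGG, 169 bases before the start. The promoter table held a window for 37 of the 46 genes. An E2F-type match lay in 20 of these 37 genes, against 10.9% of the 27025 genes with a window. Both gene groups had such matches, with 11 of 21 recombination and Fanconi genes and 6 of 7 mismatch and end joining genes, while the 4 single-strand break genes had none. A CCAAT match lay in 20 of the 37, against 41.1% of all genes, and the CHR motif in 2 of the 37, against 20.2%. An E2F-type match on the reverse strand can share letters with a CCAAT match, and a match describes letters only.

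In NRAS-off tumours most of these genes were lower than in vehicle tumours. Of the 42 tested, 30 fell and 3 rose, with a median difference of −0.32, while 27.5% of all genes tested fell and 31.8% rose (59.3% in either direction), with a median of 0.00. In MEK inhibitor tumours the balance was the other way, with 26 higher, 5 lower and a median of 0.26, against 24.3% higher and 20.9% lower among all genes (45.2% in either direction). Set directly against the MEK inhibitor tumours, 35 of the 42 were lower in NRAS-off tumours and none was higher by limma, with none at an unadjusted p under 0.05 either, against 22.7% lower and 24.3% higher among all genes (47.0% in either direction). Both comparisons with vehicle use the same 6 vehicle tumours. In 22 genes the NRAS-off tumours lay below all vehicle tumours and in 3 above all of them, against 18.4% and 20.8% of all genes. In 12 genes the MEK inhibitor tumours lay above all vehicle tumours and in 4 below them, against 12.8% and 12.7%. In 29 genes the NRAS-off tumours lay below all MEK inhibitor tumours and in none above them, against 13.3% and 15.0%.

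**Figure D1:**
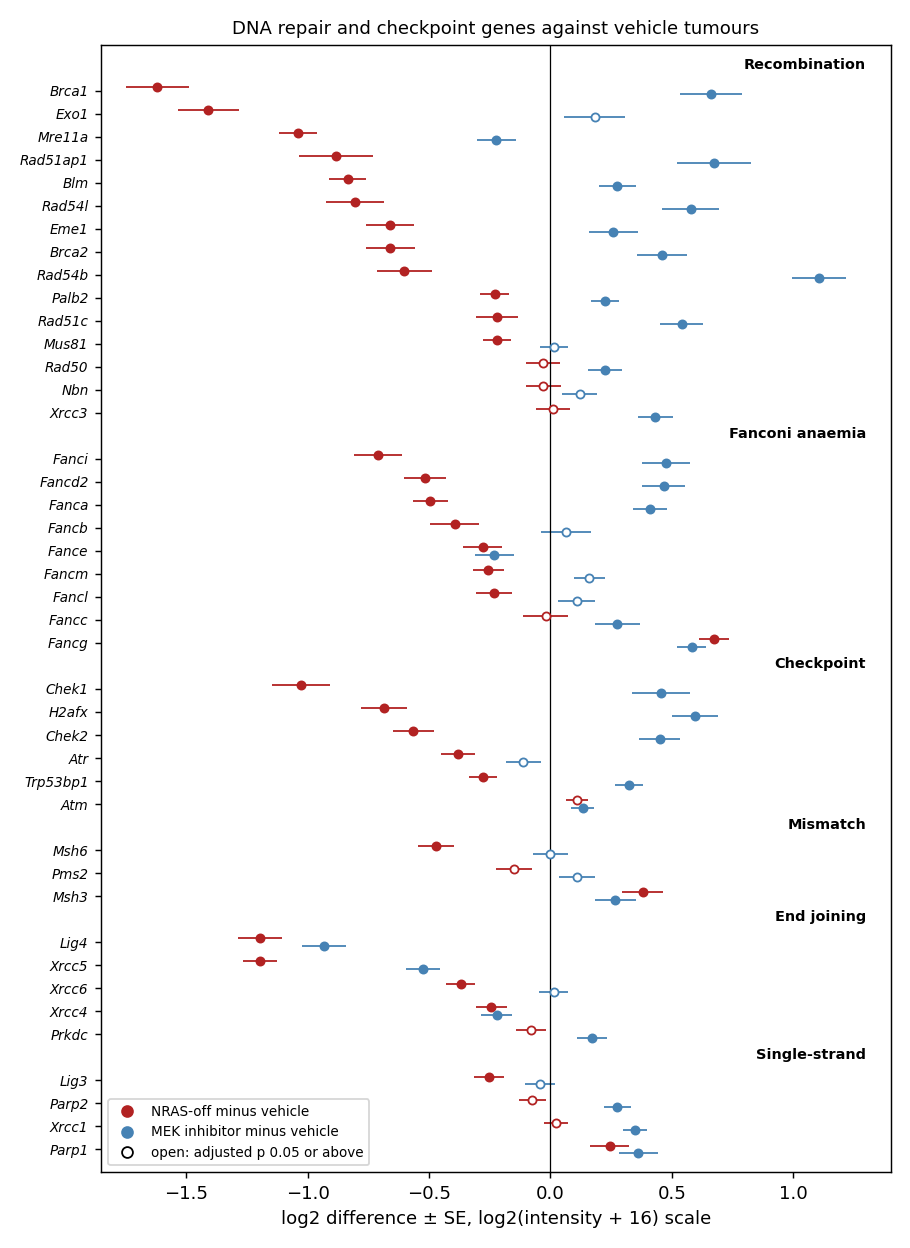
Log2 differences of the 42 tested genes (x axis, log2(intensity + 16) scale), grouped by class down the page, with bars of 1 SE from limma and open points where the adjusted p was 0.05 or above. NRAS-off minus vehicle differences lie mostly left of 0 (30 fell) and MEK inhibitor minus vehicle differences mostly right of it (26 rose), and Xrcc5 and Lig4 lie left of 0 in both.

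Genes of homologous recombination had the lowest median of the 6 classes in NRAS-off tumours, at −0.66, with 12 of 15 tested genes fallen. Under the inhibitor 11 of the 15 rose and 1 fell, with a median of 0.27. Among all genes tested 27.5% fell and 31.8% rose in NRAS-off tumours, and 24.3% rose and 20.9% fell in MEK inhibitor tumours.

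Brca1 encodes the tumour suppressor that directs broken ends to recombination. Its intensity was 42.9, 59.9 and 79.8 (lowest, median and highest) in NRAS-off tumours, 296, 334 and 473 in MEK inhibitor tumours and 194, 207 and 301 in vehicle tumours. The NRAS-off tumours lay apart from and below both other arms, and the MEK inhibitor arm was highest with a small overlap with vehicle. Brca1 was lower by 3.07-fold in NRAS-off than in vehicle tumours (−1.62 ± 0.13, limma adjusted p = 3.08e-09) and higher in MEK inhibitor tumours (0.66 ± 0.13, limma adjusted p = 0.000326). Between the treated arms the difference was −2.28 ± 0.13 (limma adjusted p = 1.19e-10). Vehicle replicate 2 set the top of the vehicle range.

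Brca2, a tumour suppressor needed for recombination, read 102, 145 and 164 in NRAS-off, 275, 327 and 359 in MEK inhibitor and 204, 218 and 291 in vehicle tumours. Again the NRAS-off tumours were lowest without overlap and the MEK inhibitor tumours highest with some. It fell by 0.66 ± 0.10 in NRAS-off tumours (limma adjusted p = 1.8e-05) and rose by 0.46 ± 0.10 in MEK inhibitor tumours (limma adjusted p = 0.00116).

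Blm, a helicase that dissolves recombination intermediates, read 109, 128 and 145 in NRAS-off, 238, 299 and 332 in MEK inhibitor and 209.7, 236 and 271 in vehicle tumours. Only the NRAS-off arm stood apart from vehicle without overlap. The difference from vehicle was −0.83 ± 0.08 in NRAS-off (limma adjusted p = 2.12e-08) and 0.27 ± 0.08 in MEK inhibitor tumours (limma adjusted p = 0.00603).

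Exo1 and Mre11a trim broken ends before recombination. The exonuclease gene Exo1 read 21.7, 28.9 and 38.3 in NRAS-off, 94.9, 114 and 170.0 in MEK inhibitor and 89.4, 98.4 and 136 in vehicle tumours. It was low in every NRAS-off tumour, and the other arms overlapped. The difference from vehicle was −1.41 ± 0.13 in NRAS-off (limma adjusted p = 1.68e-08) and 0.18 ± 0.13 in MEK inhibitor tumours (limma adjusted p = 0.263).

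Mre11a, the nuclease of the complex that first binds broken ends, read 133, 139 and 165 in NRAS-off, 243, 259 and 291 in MEK inhibitor and 262, 300.1 and 405 in vehicle tumours. Here the order of the arms differed from that of Brca1, with vehicle highest. Mre11a fell by 1.04 ± 0.08 in NRAS-off tumours (limma adjusted p = 2.04e-09) and by 0.22 ± 0.08 in MEK inhibitor tumours (limma adjusted p = 0.0284). The MEK inhibitor call ended without any 1 of vehicle replicate 2, MEK inhibitor replicate 1 or MEK inhibitor replicate 4 (−0.21 to −0.15), and on the mean of both probe sets (−0.09). A dimmer Mre11a probe set differed by −0.15 in NRAS-off tumours and was not called. The 2 partners of this nuclease were not called, with Rad50 at −0.03 ± 0.07 (limma adjusted p = 0.724) and Nbn at −0.03 ± 0.07 (limma adjusted p = 0.749) in NRAS-off tumours.

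Among the other recombination genes, Rad54b, Rad51ap1 and Rad54l differed most between the treated arms. Rad54b, a motor protein that moves along DNA, read 14.9, 15.6 and 19.9 in NRAS-off, 66.8, 86.7 and 141 in MEK inhibitor and 24.7, 34.8 and 39 in vehicle tumours, so that the 3 arms did not overlap at all. Its differences were −0.60 ± 0.11 for NRAS-off minus vehicle, 1.11 ± 0.11 for MEK inhibitor minus vehicle and −1.71 ± 0.11 between the treated arms (limma adjusted p = 0.000124, 2.26e-07 and 7.27e-10). All 6 NRAS-off intensities lay below the filter value of 23.5, where the scale compresses differences. The related gene Rad54l and the recombination cofactor gene Rad51ap1 fell by 0.81 ± 0.12 and 0.88 ± 0.15 in NRAS-off tumours and rose by 0.58 ± 0.12 and 0.67 ± 0.15 in MEK inhibitor tumours. All 4 Rad51ap1 probe sets were called lower in NRAS-off tumours, but only 2 of the 4 for Rad54l, which ranged from −0.81 to 0.04. The nuclease subunit gene Eme1 fell by 0.66 ± 0.10 in NRAS-off tumours, and its partner Mus81 fell by 0.22 ± 0.06. Eme1 was higher by 0.26 ± 0.10 in MEK inhibitor tumours (limma adjusted p = 0.0423). That call ended without any 1 of vehicle replicates 3, 4 and 5 or MEK inhibitor replicates 2, 3, 4 and 6 (0.17 to 0.25).

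Palb2, which joins BRCA1 to BRCA2, fell by 0.23 ± 0.06 in NRAS-off tumours and rose by 0.23 ± 0.06 in MEK inhibitor tumours. The recombination gene Rad51c fell by 0.22 ± 0.09 in NRAS-off tumours (limma adjusted p = 0.0359) and rose by 0.54 ± 0.09 in MEK inhibitor tumours. Its fall was not called without any 1 of vehicle replicates 1 to 4 or NRAS-off replicates 1 and 4 (−0.21 to −0.18). Xrcc3, which acts in a complex with the Rad51c product, differed by 0.01 ± 0.07 in NRAS-off tumours (limma adjusted p = 0.919) and rose by 0.43 ± 0.07 in MEK inhibitor tumours.

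**Figure D2:**
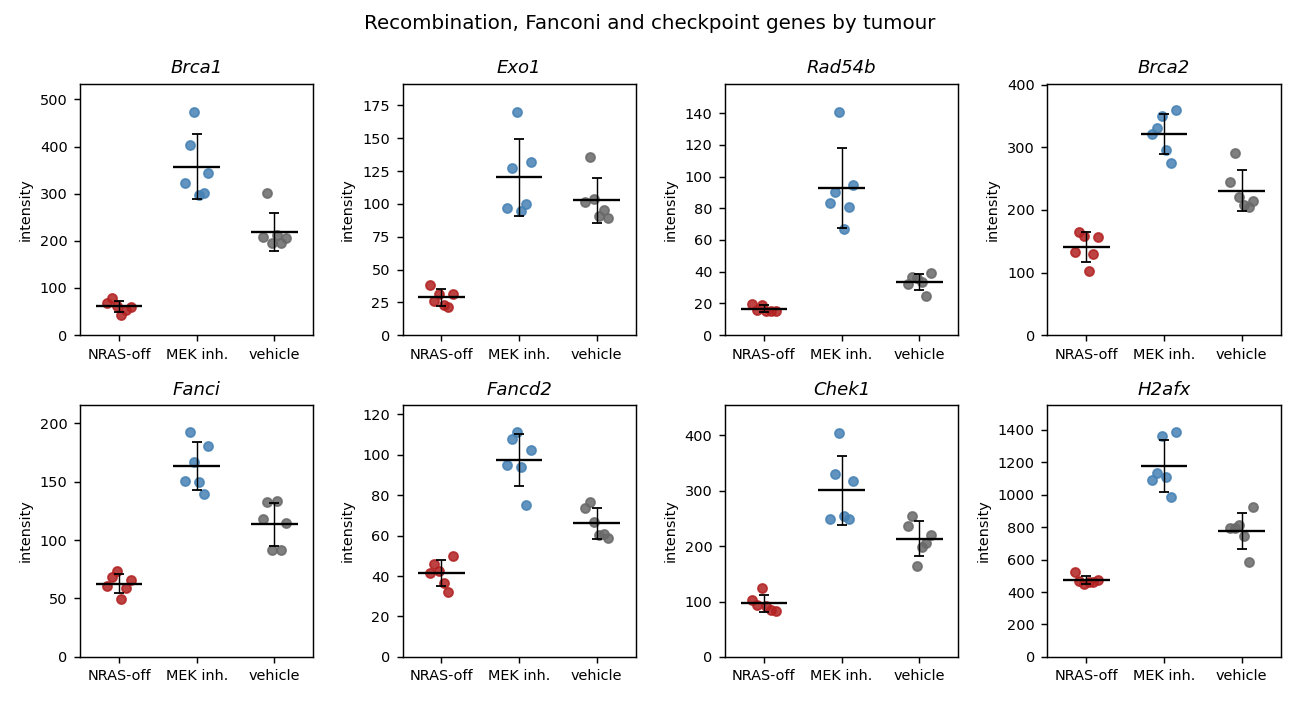
Intensity (y axis, from 0) of recombination, Fanconi and checkpoint genes in each tumour, with NRAS-off, MEK inhibitor and vehicle tumours from left to right, lines at the mean and bars of 1 SD (n = 6). Brca1 lies between 42.9 and 79.8 in the NRAS-off tumours, below every tumour of the other arms.

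Fanconi anaemia genes had a smaller median fall in NRAS-off tumours than the recombination genes, a difference between classes that was not tested. In NRAS-off tumours 7 of the 9 fell and 1 rose, with a median of −0.28, against 27.5% fallen and 31.8% risen among all genes. Under MEK inhibition 5 rose and 1 fell, with a median of 0.27, against 24.3% risen and 20.9% fallen among all genes.

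Fanci and Fancd2 encode the clamp that is loaded onto DNA at crosslinks. Fanci read 49.2, 63.3 and 73.6 in NRAS-off, 139, 159 and 192 in MEK inhibitor and 91.3, 116 and 133 in vehicle tumours. None of the arms overlapped. Its difference from vehicle was −0.71 ± 0.10 in NRAS-off tumours (limma adjusted p = 4.66e-06) and 0.48 ± 0.10 in MEK inhibitor tumours (limma adjusted p = 0.000606).

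Fancd2 read 32, 42.2 and 49.8 in NRAS-off, 75.3, 98.5 and 111 in MEK inhibitor and 58.6, 63.6 and 76.4 in vehicle tumours. As for Fanci, the NRAS-off arm was lowest and the MEK inhibitor arm highest, here with a small overlap with vehicle. It fell by 0.52 ± 0.09 in NRAS-off tumours (limma adjusted p = 4.44e-05) and rose by 0.47 ± 0.09 in MEK inhibitor tumours (limma adjusted p = 0.000232). A dimmer Fancd2 probe set fell by 0.46 in NRAS-off tumours and was not called in MEK inhibitor tumours (0.02).

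The core complex attaches ubiquitin to that clamp. Its member Fanca read 66.1, 78.5 and 84.7 in NRAS-off, 148, 153 and 176 in MEK inhibitor and 96.7, 114 and 134 in vehicle tumours. The arms again did not overlap. Fanca fell by 0.49 ± 0.07 in NRAS-off tumours (limma adjusted p = 7.86e-06) and rose by 0.41 ± 0.07 in MEK inhibitor tumours (limma adjusted p = 0.000124). A dimmer Fanca probe set was called in neither arm, at −0.13 in NRAS-off and −0.11 in MEK inhibitor tumours.

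Fancg, another core complex subunit, went against most of its class in NRAS-off tumours and with most of it in MEK inhibitor tumours. It read 113, 129 and 152 in NRAS-off, 112, 119 and 129 in MEK inhibitor and 67.8, 76 and 83 in vehicle tumours. Both treated arms lay wholly above vehicle and overlapped each other. Fancg rose by 0.67 ± 0.06 in NRAS-off tumours (limma adjusted p = 2.11e-08) and by 0.58 ± 0.06 in MEK inhibitor tumours (limma adjusted p = 3.88e-07). A dimmer probe set of the gene gave 0.18 in NRAS-off tumours, which was not called, and 0.36 in MEK inhibitor tumours, which was.

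Of the remaining core genes, Fancb, Fance and Fancl fell in NRAS-off tumours by 0.39 ± 0.10, 0.28 ± 0.08 and 0.23 ± 0.07, and Fancm, the helicase that anchors the complex on DNA, fell by 0.26 ± 0.06. Fance also fell in MEK inhibitor tumours, by 0.23 ± 0.08 (limma adjusted p = 0.0249), a call that ended without MEK inhibitor replicate 2 or 4 (−0.21 and −0.20). Fancc depended on the probe set. Its brightest probe set differed by −0.02 ± 0.09 in NRAS-off tumours (limma adjusted p = 0.876), and its most variable one rose by 0.31. In MEK inhibitor tumours Fancc rose by 0.27 ± 0.09 (limma adjusted p = 0.0207), which was not called without any 1 of vehicle replicate 4 and MEK inhibitor replicates 4 and 6 (0.21 to 0.24). Fancm was not called in MEK inhibitor tumours at 0.16 ± 0.06 (limma adjusted p = 0.0515), and it passed without any 1 of vehicle replicates 1 and 6, NRAS-off replicates 1 and 2 and MEK inhibitor replicates 2 and 5 (0.16 to 0.20).

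Checkpoint genes included large differences for the effector kinases and the histone H2AX and smaller ones for the sensor kinases. Of 6 tested genes 5 fell in NRAS-off tumours, with a median of −0.47, and 5 rose in MEK inhibitor tumours, with a median of 0.39. Among all genes 27.5% fell in NRAS-off tumours and 24.3% rose in MEK inhibitor tumours.

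Chek1, the kinase that ATR activates at stalled forks, read 82.6, 92.5 and 124 in NRAS-off, 249, 287 and 404 in MEK inhibitor and 165, 213 and 255 in vehicle tumours. The NRAS-off tumours lay below both other arms. The difference from vehicle was −1.03 ± 0.12 in NRAS-off (limma adjusted p = 5.72e-07) and 0.46 ± 0.12 in MEK inhibitor tumours (limma adjusted p = 0.00437). The MEK inhibitor call ended on the mean of the gene's probe sets (0.13).

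Chek2, the kinase below ATM, read 108, 132 and 149.6 in NRAS-off, 251, 276 and 305 in MEK inhibitor and 173, 203 and 219 in vehicle tumours. No arm overlapped another. Chek2 fell by 0.56 ± 0.08 in NRAS-off tumours (limma adjusted p = 1.02e-05) and rose by 0.45 ± 0.08 in MEK inhibitor tumours (limma adjusted p = 0.000227).

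H2afx, which encodes the histone that is phosphorylated around breaks, read 449.7, 465 and 521 in NRAS-off, 986, 1124 and 1389 in MEK inhibitor and 584, 795 and 924 in vehicle tumours. The 3 arms were again separate. The differences from vehicle were −0.69 ± 0.09 in NRAS-off and 0.60 ± 0.09 in MEK inhibitor tumours (limma adjusted p = 4.24e-06 and 4.46e-05). Trp53bp1, which encodes the 53BP1 protein that shields broken ends from trimming, fell by 0.28 ± 0.06 in NRAS-off tumours and rose by 0.32 ± 0.06 in MEK inhibitor tumours. On the mean of its probe sets the fall was not called (−0.06).

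The sensor kinase gene Atr read 193, 210.3 and 224 in NRAS-off, 207, 261 and 285 in MEK inhibitor and 250.2, 273 and 314 in vehicle tumours. The NRAS-off arm was lowest and overlapped only the MEK inhibitor arm. Atr fell by 0.38 ± 0.07 in NRAS-off tumours (limma adjusted p = 0.000134) and differed by −0.11 ± 0.07 in MEK inhibitor tumours (limma adjusted p = 0.224). Its dimmer probe sets differed by 0.01 and −0.14 in NRAS-off tumours and were not called.

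Atm read 453, 459.6 and 476 in NRAS-off, 438, 475 and 519.6 in MEK inhibitor and 394, 434 and 452 in vehicle tumours. All NRAS-off values lay just above the vehicle values, yet the difference of 0.11 ± 0.05 missed the threshold (limma adjusted p = 0.0514). It passed without any 1 of vehicle replicate 1 and MEK inhibitor replicates 2, 3 and 4 (0.11 to 0.12), and on the mean of both probe sets (0.17). In MEK inhibitor tumours Atm rose by 0.13 ± 0.05 (limma adjusted p = 0.0262), a call that ended without any 1 of vehicle replicate 3 and MEK inhibitor replicates 4 and 6 (0.10 to 0.13).

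End joining genes had class means in NRAS-off tumours as low as those of recombination, and they were lower than vehicle in MEK inhibitor tumours as well. In NRAS-off tumours 4 of 5 fell, with a median of −0.37, against 27.5% fallen among all genes. Under the inhibitor 3 fell and 1 rose, with a median of −0.22, against 20.9% fallen and 24.3% risen among all genes.

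Xrcc5 encodes Ku80, which forms with Ku70 the ring that grips broken ends. It read 333, 385 and 427 in NRAS-off, 549, 612 and 679 in MEK inhibitor and 793, 896 and 983 in vehicle tumours. The arms were fully separate, with vehicle highest. Xrcc5 was 2.29-fold lower in NRAS-off tumours (−1.19 ± 0.07, limma adjusted p = 5.47e-11) and 1.44-fold lower in MEK inhibitor tumours (−0.53 ± 0.07, limma adjusted p = 6.13e-06). Between the treated arms it differed by −0.67 ± 0.07 (limma adjusted p = 2.44e-07).

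Lig4, the ligase that seals the joined ends, read 199, 244 and 277 in NRAS-off, 253, 299 and 316 in MEK inhibitor and 484, 571 and 622 in vehicle tumours. Both treated arms lay far below vehicle and overlapped each other. Its difference from vehicle was −1.20 ± 0.09 in NRAS-off (limma adjusted p = 1.6e-09) and −0.93 ± 0.09 in MEK inhibitor tumours (limma adjusted p = 1.29e-07). The difference between the treated arms was −0.26 ± 0.09 (limma adjusted p = 0.0217), a call that ended without NRAS-off replicate 2 or 4 (−0.22 in each case). Xrcc5 and Lig4 were each read by a single probe set.

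Xrcc6, which encodes Ku70, read 272, 308 and 330.0 in NRAS-off, 370.0, 385 and 443 in MEK inhibitor and 371, 391 and 432 in vehicle tumours. Its NRAS-off tumours lay below both other arms, which overlapped. The differences from vehicle were −0.37 ± 0.06 in NRAS-off and 0.01 ± 0.06 in MEK inhibitor tumours (limma adjusted p = 2.97e-05 and 0.891). The gene for its partner Ku80 was thus lower under MEK inhibition, while Xrcc6 itself was not called. A dimmer Xrcc6 probe set differed by 0.08 in NRAS-off tumours and was not called.

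Xrcc4, the scaffold of the ligase, read 168, 185 and 218 in NRAS-off, 163, 190.2 and 208 in MEK inhibitor and 212, 223 and 239 in vehicle tumours. Both treated arms were low, and only the MEK inhibitor arm lay wholly below vehicle. Xrcc4 fell by 0.24 ± 0.06 in NRAS-off and by 0.22 ± 0.06 in MEK inhibitor tumours (limma adjusted p = 0.00274 and 0.00783). A dimmer Xrcc4 probe set was called in neither arm, at −0.09 in NRAS-off and −0.13 in MEK inhibitor tumours. Prkdc, the catalytic kinase that Ku recruits, differed by −0.08 ± 0.06 in NRAS-off tumours (limma adjusted p = 0.266) and rose by 0.17 ± 0.06 in MEK inhibitor tumours (limma adjusted p = 0.0288). That rise was not called without any 1 of vehicle replicates 1, 2 and 3 or MEK inhibitor replicates 1, 5 and 6 (0.15 to 0.16).

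Of the 3 tested mismatch repair genes 1 rose and 1 fell in NRAS-off tumours. These counts were near the shares of all genes, 31.8% risen and 27.5% fallen. Msh6 and Msh3 encode sensors of single mispairs and of larger loops. Msh6 read 426, 441 and 524 in NRAS-off, 524, 653 and 703 in MEK inhibitor and 569.8, 652 and 704 in vehicle tumours. The NRAS-off arm was low and the other arms overlapped. The differences from vehicle were −0.47 ± 0.07 in NRAS-off and −0.00 ± 0.07 in MEK inhibitor tumours (limma adjusted p = 1.59e-05 and 0.994).

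Msh3 read 161, 179 and 214 in NRAS-off, 133, 172 and 189 in MEK inhibitor and 119, 131 and 156 in vehicle tumours. Unlike those of Msh6, its NRAS-off values lay wholly above vehicle. Msh3 rose by 0.38 ± 0.08 in NRAS-off (limma adjusted p = 0.000627) and by 0.27 ± 0.08 in MEK inhibitor tumours (limma adjusted p = 0.0132). Pms2, the endonuclease subunit that nicks the new strand, read 197, 233 and 257 in NRAS-off, 241, 292 and 304 in MEK inhibitor and 219, 267 and 282 in vehicle tumours, and all arms overlapped. Pms2 was not called against vehicle, at −0.15 ± 0.07 in NRAS-off and 0.11 ± 0.07 in MEK inhibitor tumours (limma adjusted p = 0.0898 and 0.254). Without vehicle replicate 3 the NRAS-off difference passed (−0.19).

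**Figure D3:**
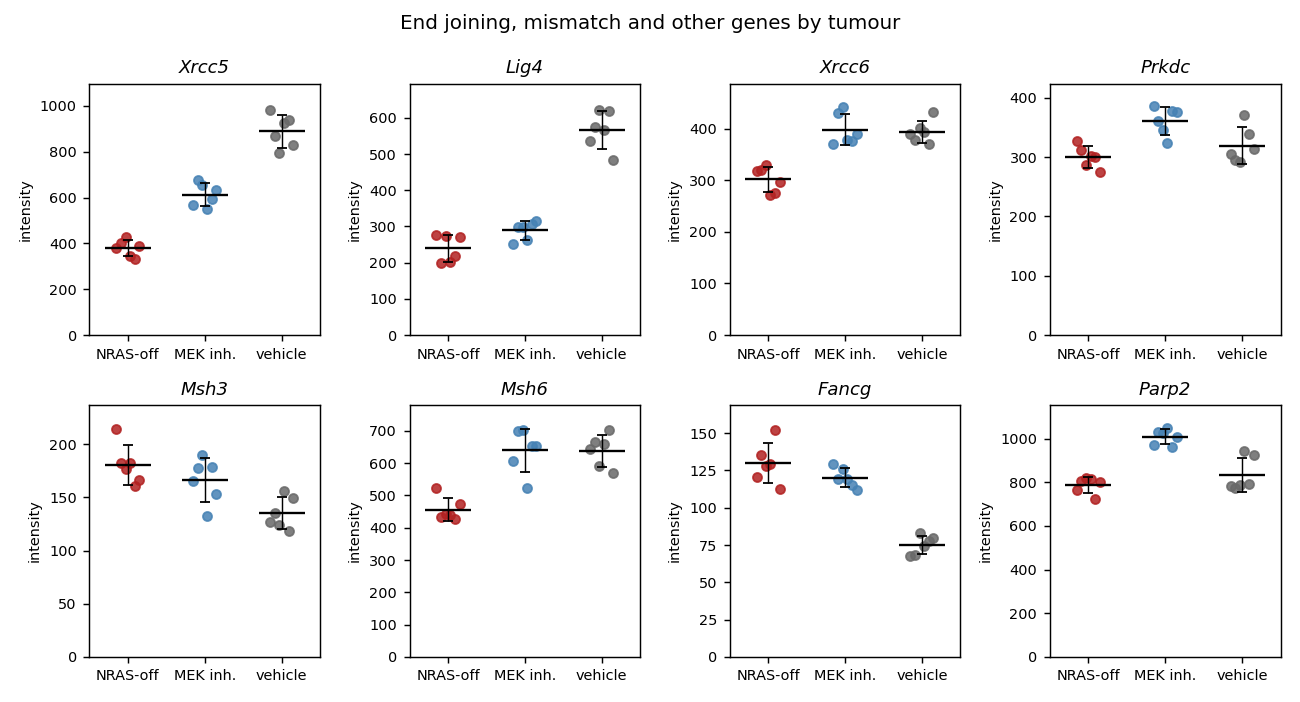
Intensity (y axis, from 0) of end joining, mismatch, Fanconi and single-strand break genes in each tumour, with NRAS-off, MEK inhibitor and vehicle tumours from left to right, lines at the mean and bars of 1 SD (n = 6). Xrcc5 and Lig4 are lower in both treated arms than in every vehicle tumour, and Fancg is higher in both.

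The single-strand break genes other than Lig3 were higher in MEK inhibitor tumours. Of 4 tested genes 1 rose and 1 fell in NRAS-off tumours, with a median of −0.03. These counts were near the shares of all genes, 31.8% risen and 27.5% fallen. In MEK inhibitor tumours 3 rose, with a median of 0.31, against 24.3% of all genes.

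Parp1, the sensor that marks breaks with poly(ADP-ribose), read 531, 653 and 687 in NRAS-off, 651, 692 and 731 in MEK inhibitor and 431, 554 and 629 in vehicle tumours. The treated arms were the higher ones, and only the MEK inhibitor arm cleared vehicle. Parp1 rose by 0.24 ± 0.08 in NRAS-off (limma adjusted p = 0.0139) and by 0.36 ± 0.08 in MEK inhibitor tumours (limma adjusted p = 0.00116). Its 4 probe sets disagreed between the treated arms, from −0.40 to 0.22, and on the most variable one the NRAS-off rise was not called (0.06).

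Parp2, a related sensor, read 725, 804 and 819.9 in NRAS-off, 963, 1017 and 1051 in MEK inhibitor and 774, 790.2 and 941 in vehicle tumours. The MEK inhibitor arm lay above both others. Parp2 differed by −0.08 ± 0.06 in NRAS-off (limma adjusted p = 0.254) and rose by 0.27 ± 0.06 in MEK inhibitor tumours (limma adjusted p = 0.000468).

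Xrcc1, the scaffold of this repair route, read 392, 397 and 408 in NRAS-off, 484, 498 and 539 in MEK inhibitor and 355, 390.1 and 438 in vehicle tumours. Only the MEK inhibitor tumours stood apart. The differences from vehicle were 0.02 ± 0.05 in NRAS-off and 0.35 ± 0.05 in MEK inhibitor tumours (limma adjusted p = 0.727 and 1.2e-05). Its ligase partner gene Lig3 read 381, 406 and 424 in NRAS-off, 439.9, 479 and 497 in MEK inhibitor and 416, 492 and 551 in vehicle tumours. Vehicle values of Lig3 overlapped those of both treated arms. Lig3 fell by 0.25 ± 0.06 in NRAS-off tumours (limma adjusted p = 0.00155) and was not called in MEK inhibitor tumours at −0.04 ± 0.06 (limma adjusted p = 0.613), where a pair of dimmer Lig3 probe sets fell by 0.33 and 0.42.

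Recombination and Fanconi genes were then set against mismatch and end joining genes. Of 24 tested recombination and Fanconi genes, 19 fell and 1 rose in NRAS-off tumours (median −0.44), and 16 rose and 2 fell in MEK inhibitor tumours (median 0.27). Of all genes tested, 27.5% fell and 31.8% rose in NRAS-off tumours, and 24.3% rose and 20.9% fell in MEK inhibitor tumours. Of 8 tested mismatch and end joining genes, 5 fell and 1 rose in NRAS-off tumours (median −0.31), and 2 rose and 3 fell in MEK inhibitor tumours (median 0.01). Both groups were mostly lower in the NRAS-off arm. In the MEK inhibitor arm the share of the 8 genes that rose was near that of all genes, while 37.5% fell, against 20.9%.

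Each tumour's mean over the tested genes of a group, relative to the vehicle mean, was then taken. In NRAS-off tumours the group means averaged −0.48 ± 0.08 for recombination and Fanconi genes and −0.42 ± 0.10 for mismatch and end joining genes (SD, n = 6). In MEK inhibitor tumours they averaged 0.33 ± 0.11 and −0.14 ± 0.09. The first group minus the second was −0.06 ± 0.05 in NRAS-off tumours, 0.47 ± 0.06 in MEK inhibitor tumours and 0 ± 0.12 in vehicle tumours, a set of differences given with no test. All 6 MEK inhibitor tumours, at 0.37 to 0.52, lay above all 6 vehicle tumours, at −0.17 to 0.14, and the NRAS-off tumours, at −0.15 to 0.01, lay within the vehicle range. The small NRAS-off difference changed sign to 0.093 when all probe sets of a gene were averaged and to 0.043 with a pseudocount of 64, and the difference between the treated arms of −0.53 was −0.29 and −0.33 there. Within the second group, end joining genes averaged −0.62 ± 0.10 in NRAS-off and −0.30 ± 0.08 in MEK inhibitor tumours, and mismatch genes −0.08 ± 0.11 and 0.12 ± 0.13. Xrcc5 and Lig4 are 2 of the 5 end joining genes that make that mean. Left out, a choice made after seeing the data, they leave 6 mismatch and end joining genes, whose mean difference from vehicle was −0.16 in NRAS-off tumours and 0.06 in MEK inhibitor tumours. The first group minus the second then became −0.32 in NRAS-off tumours and 0.27 in MEK inhibitor tumours, relative to vehicle. The MEK inhibitor difference was smaller and the NRAS-off difference larger than with these 2 genes.

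**Figure D4:**
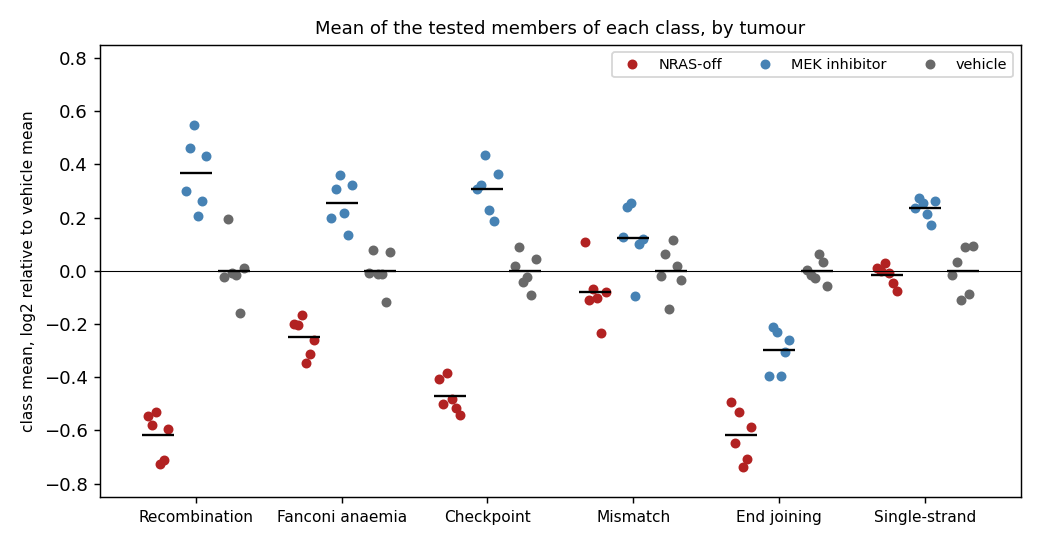
Mean log2(intensity + 16) over the tested genes of each class relative to the mean of vehicle tumours (y axis), 1 point per tumour, with NRAS-off, MEK inhibitor and vehicle tumours from left to right in each class and lines at the arm mean. Recombination and end joining averaged −0.62 in the NRAS-off arm, while in the MEK inhibitor arm recombination averaged 0.37 and end joining −0.30.

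The direct comparison of NRAS-off with MEK inhibitor tumours spanned the classes. In recombination 14 of 15 genes were lower in NRAS-off tumours with a median of −0.92, in the Fanconi class 7 of 9 with −0.42, in the checkpoint 5 of 6 with −0.81, in end joining 4 of 5 with −0.26, in mismatch repair 2 of 3 with −0.26 and in single-strand break repair 3 of 4 with −0.27. Among all genes tested 22.7% were lower and 24.3% higher in NRAS-off than in MEK inhibitor tumours. The genes not called were Nbn, Fance, Fancg, Atm, Msh3, Xrcc4 and Parp1. Nbn differed by −0.15 ± 0.07 (limma adjusted p = 0.103) and was called without MEK inhibitor replicate 4 (−0.20). Without that tumour Nbn was also called higher in MEK inhibitor than in vehicle tumours (0.17).

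Several probe sets above the filter read 24 of the 42 genes. All of a gene's probe sets were called in one direction in 9 genes for NRAS-off minus vehicle, in 4 for MEK inhibitor minus vehicle and in 8 between the treated arms. Opposite calls occurred in Parp1 alone, between the treated arms, and in the other genes only some or none of the probe sets passed. In Brca1 the dimmer probe set fell by 0.43 in NRAS-off tumours, and in Chek1 the dimmer probe sets fell by 0.43 and 0.86. In MEK inhibitor tumours these probe sets were not called, at 0.24 in Brca1 and −0.02 and 0.22 in Chek1.

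A wider list of 104 repair genes outside the 46, of which 92 were tested, had 37 fallen in NRAS-off tumours, 14 risen and a median of −0.10, against 27.5% fallen and 31.8% risen among all genes. In MEK inhibitor tumours 30 rose and 11 fell, with a median of 0.07, against 24.3% risen and 20.9% fallen among all genes. Between the treated arms 41 were lower and 5 higher in NRAS-off tumours, with a median of −0.15, against 22.7% lower and 24.3% higher among all genes. In MEK inhibitor tumours 2 of 19 further checkpoint genes rose and 2 fell (10.5% each), with a median of 0.02. In NRAS-off tumours 13 of the 19 fell and 2 rose. Clspn, the claspin adaptor of CHK1, fell by 1.38 ± 0.15 (limma adjusted p = 3.37e-07), Hus1, a subunit of the checkpoint clamp, by 0.76 ± 0.06 (limma adjusted p = 3.16e-09) and the ubiquitin ligase gene Rad18 by 0.71 ± 0.10 (limma adjusted p = 3.93e-06). Ube2t, the enzyme that ubiquitinates the Fanconi clamp, fell by 1.37 ± 0.15 in NRAS-off tumours (limma adjusted p = 1.63e-07) and rose by 0.37 ± 0.15 in MEK inhibitor tumours (limma adjusted p = 0.0484). Of 8 further tested Fanconi genes, 3 fell in NRAS-off tumours and 4 rose in MEK inhibitor tumours.

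Of 23 further recombination genes 6 fell and 4 rose in NRAS-off tumours, with a median of −0.02, against −0.66 among the listed ones. The share that fell was near the 27.5% of all genes. Mcm8, a helicase gene, and Gen1, a resolvase gene, fell by 0.92 ± 0.11 and 0.70 ± 0.11, and the recombination gene Rad51b rose by 0.68 ± 0.14 (limma adjusted p = 4.88e-07, 2.49e-05 and 0.000437). Under the inhibitor Gen1 rose by 0.62 ± 0.11, Rad51b by 0.51 ± 0.14 and the nuclease gene Dna2 by 0.44 ± 0.08 (limma adjusted p = 0.000187, 0.00665 and 0.000194). Among 6 further end joining genes Polm, a gap-filling polymerase gene, fell by 0.62 ± 0.12 in NRAS-off and by 0.50 ± 0.12 in MEK inhibitor tumours (limma adjusted p = 0.000151 and 0.0017). Aplf, an end joining cofactor gene, fell by 0.43 ± 0.08 in NRAS-off tumours, and Poll, another gap-filling polymerase gene, rose by 0.43 ± 0.07 in MEK inhibitor tumours. Of the 6, 2 fell in NRAS-off tumours (median −0.02), and 1 rose and 1 fell in MEK inhibitor tumours (median 0.03). Among all genes 27.5% fell in NRAS-off tumours, and 24.3% rose and 20.9% fell in MEK inhibitor tumours.

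Most genes of S phase and mitosis moved in the directions of most recombination and Fanconi genes. Of 18 tested, 17 fell in NRAS-off tumours with a median of −1.33, and 13 rose in MEK inhibitor tumours with a median of 0.40. Among all genes 27.5% fell in NRAS-off tumours and 24.3% rose in MEK inhibitor tumours. None of the 18 fell in MEK inhibitor tumours, where Xrcc5, Lig4, Xrcc4, Mre11a and Fance did. Counts of cell type markers are to be read against the shares of all genes. Those were 31.8% risen and 27.5% fallen in NRAS-off tumours, and 24.3% risen and 20.9% fallen in MEK inhibitor tumours. The summed intensity of 10 macrophage markers was 43103 to 61205 in NRAS-off, 8395 to 19234 in MEK inhibitor and 17293 to 27724 in vehicle tumours, with 10 of 10 risen in the NRAS-off arm and 8 of 10 fallen in the MEK inhibitor arm. The sum of 10 fibroblast markers was 182763 to 214170.2 in NRAS-off, 123792 to 130119 in MEK inhibitor and 81905 to 98751 in vehicle tumours, with 8 risen and 2 fallen in the NRAS-off arm and 6 risen and 1 fallen in the MEK inhibitor arm. The sum of 8 skeletal muscle markers was 26544 to 40123 in NRAS-off, 15596 to 37402 in MEK inhibitor and 2477 to 13639 in vehicle tumours, and all 8 rose in both treated arms. Of 8 endothelial markers 7 rose in NRAS-off tumours and 2 rose and 1 fell in MEK inhibitor tumours, and their sum was 2193 to 2915 in NRAS-off, 1408 to 1831 in MEK inhibitor and 1162 to 1766 in vehicle tumours. The sum of 8 melanocytic markers was 9691 to 13059.8 in NRAS-off, 12446 to 17732 in MEK inhibitor and 9082 to 11175 in vehicle tumours, with 4 of 6 tested risen in the NRAS-off arm and 2 of 6 in the MEK inhibitor arm. In the MEK inhibitor arm the shares of endothelial and melanocytic markers that rose were near that of all genes. The sum of 8 keratinocyte markers reached 30355 in NRAS-off replicate 2, against a median of 709 in that arm, and without that tumour 30 of the 42 genes fell and 3 rose. How far S phase genes or other cell types enter the differences of the repair genes was not tested.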

How the data were processed

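The deposited table holds 45037 probe sets by 18 arrays of linear probe set intensity values, summarised by the authors with the tools MAS5 and RMA that the submitters' processing notes name, without saying which made this table. Tumour pieces of about 50 mg gave RNA by Trizol, and 10 ug were labelled with biotin, per the labels' protocols. The platform annotation gave 1 symbol for 34945 probe sets, several for 932 and none for 9160, and symbols were updated from a RefSeq gene table. The brightest probe set stood for each gene, and genes averaging no more than the 25th percentile of probe sets (intensity 23.5) were dropped. Probe sets named for both Fsbp and Rad54b were not used.

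limma 3.58.1 in R 4.3.3 fitted log2(intensity + 16) of all 18 arrays in 1 model of 3 groups, with Benjamini-Hochberg adjustment over 15005 genes, a threshold of 0.05 and 15 residual degrees of freedom. A second fit covered 33777 probe sets. On simulated data for NRAS-off minus vehicle, 15005 genes, 88% of genes changed by a log2 of 0.5 and 98% of those changed by 1 were recovered, with 13 false calls. How far these values hold for the measured tumours, where 59.3% of genes were called in that comparison, was not tested. The p-values measure the spread between distinct tumours, and the number of arrays limits precision. No label gives a batch. Members, gene lists and tests were chosen with earlier results of these data known. Written out tumour by tumour were up to 4 members per class with the largest moderated t in NRAS-off minus vehicle, plus Chek1, Chek2, Atm, Atr, Brca1, Brca2 and Fancd2. Of other repair genes, up to 3 per class with the largest called change against vehicle could be named, and Rad54b was added for its values. Alternatives covered the filter, pseudocount, probe set rule, centring, quantile normalization, prior, array weights, samples fitted, replicate block, threshold and leaving out each tumour. Plots used matplotlib 3.10.9 under Python 3.11.15.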

Additional observations from a re-analysis of the deposited data

Results flagged for a closer look

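Of 126 groups of 6 tumours screened, 7 held a tumour set far from the others of its arm, and chance alone gives about 1 in 20 groups. NRAS-off replicate 6 was highest of its arm for Mre11a, at an intensity of 165 with the next at 144, and lowest for Parp1, at 531 with the next at 638. NRAS-off replicate 1 was highest for H2afx, at 521 with the next at 475. MEK inhibitor replicate 1 was highest for Trp53bp1, at 2337 with the next at 2090. Vehicle replicate 2 was highest of its arm for Brca1, at 301 with the next at 212, for Exo1, at 136 with the next at 104, and for Mre11a, at 405 with the next at 315. Without vehicle replicate 2 the fall of Mre11a in MEK inhibitor tumours was not called, while 29 of the 42 genes fell in NRAS-off tumours.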

How the results depend on the processing

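Of 126 results, 42 genes in 3 comparisons, 99 kept their side of the threshold under every alternative that tested them. Where called, they also kept their direction. There were 31 alternatives, 18 of which left out 1 tumour. A difference that was never called could change sign and still count among the 99. Mus81 in MEK inhibitor minus vehicle, for example, was 0.01, and −0.10 on its most variable probe set. The filter at the 50th percentile tested 37 of the 42 genes, so 111 results were run under all 31. Of these, 84 kept their side of the threshold throughout. On the most variable probe set Fancc turned to 0.31 in NRAS-off minus vehicle, where it was called, and to 0.046 in NRAS-off minus MEK inhibitor. The number of genes lower in MEK inhibitor than in vehicle tumours was 5, and 3 at an adjusted p under 0.01. Leaving out each tumour gave 3 to 5, with 3 without MEK inhibitor replicate 4. The mean of recombination and Fanconi genes minus that of mismatch and end joining genes turned from −0.06 to 0.043 with a pseudocount of 64 and to 0.093 on the mean of all probe sets in NRAS-off minus vehicle. In MEK inhibitor minus vehicle it moved from 0.47 to 0.37 with a pseudocount of 64. Between the treated arms it moved from −0.53 to −0.47 with a filter at the 50th percentile, −0.65 with a pseudocount of 1, −0.33 with a pseudocount of 64 and −0.29 on the mean of all probe sets. The cause was not tested. Without Xrcc5 and Lig4, an alternative chosen after seeing the data, it became −0.32 in NRAS-off minus vehicle, 0.27 in MEK inhibitor minus vehicle and −0.59 between the treated arms. Correlations of same-numbered tumours' deviations were −0.14 to 0.27, with 8 of 18 over 0.1, so the numbers were not taken as pairing the tumours. With the replicate block 30 of the 42 genes fell and 3 rose in NRAS-off minus vehicle, and 1 further gene, Fancm, was called in MEK inhibitor minus vehicle (0.16). Dim probe sets limit Bard1, Brip1 and the NRAS-off level of Rad54b.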

Other observations

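The genes of this section belong to the wider repair list above and were already counted there. Nucleotide excision repair, which removes bulky lesions such as those of ultraviolet light, had 16 tested genes in that list. In NRAS-off tumours 5 rose and 5 fell, with a median of 0.02, and in MEK inhibitor tumours 5 rose and 2 fell, with a median of 0.03. Among all genes tested 31.8% rose and 27.5% fell in NRAS-off tumours, and 24.3% rose and 20.9% fell in MEK inhibitor tumours. Rad23b, a partner of the damage sensor XPC, fell in both treated arms, by 0.87 ± 0.08 in NRAS-off and by 0.53 ± 0.08 in MEK inhibitor tumours (limma adjusted p = 5.08e-08 and 4.52e-05). Ddb2, which recognises ultraviolet lesions and is a target of p53, rose by 0.58 ± 0.07 in NRAS-off and by 0.51 ± 0.07 in MEK inhibitor tumours (limma adjusted p = 3.98e-07 and 4.89e-06). Gtf2h4, a subunit of the TFIIH helicase complex, fell by 0.61 ± 0.08 in NRAS-off tumours (limma adjusted p = 2e-06), and Uvssa, which acts at stalled RNA polymerase, rose by 0.37 ± 0.07 in MEK inhibitor tumours (limma adjusted p = 0.000147).

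Among 17 further tested genes of base excision and single-strand break repair, 3 rose and 7 fell in NRAS-off tumours (median −0.15), and 7 rose and 4 fell in MEK inhibitor tumours (median 0.07), to be read against the same shares of all genes. Apex1, the main enzyme that cuts at abasic sites, fell by 0.78 ± 0.08 in NRAS-off and by 0.55 ± 0.08 in MEK inhibitor tumours (limma adjusted p = 4.76e-08 and 7.9e-06). Parp3, a relative of Parp1, rose by 0.56 ± 0.11 in NRAS-off and by 0.53 ± 0.11 in MEK inhibitor tumours (limma adjusted p = 0.000292 and 0.000754). Tdp1, which frees trapped topoisomerase from DNA, fell by 0.54 ± 0.06 in NRAS-off tumours (limma adjusted p = 1.87e-07), and the DNA glycosylase gene Neil3 rose by 0.56 ± 0.11 in MEK inhibitor tumours (limma adjusted p = 0.000281). Among further checkpoint genes, Rad17, which loads the checkpoint clamp, fell by 0.33 ± 0.06 in MEK inhibitor tumours, and Topbp1, an activator of ATR, rose by 0.39 ± 0.10 there (limma adjusted p = 0.000105 and 0.00244).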
